A study of Mus musculus with 14 samples.

Results

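The mammary epithelium has an outer basal layer and an inner luminal layer, and both are remodelled in pregnancy. The account here concerns how far the response to pregnancy differed between them, gene by gene. For each gene the pregnant minus virgin difference in luminal cells was subtracted from that in MaSC-enriched cells, which is the interaction of population and pregnancy in a fit over all 14 arrays. It was read in the 7905 genes, of 11350 genes tested, that were detected (detection p below 0.05) on at least 3 arrays of every group, whatever their response. The other 3445 tested genes were at or near background in some group, so that their difference in response could be bounded by the array's floor.

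Cells from FVB/NJ female mice lacking CD45, CD31 and TER119, the markers of leukocytes, endothelium and red cells, had been sorted by CD24 and CD29. CD29-high CD24-positive cells form the MaSC-enriched population, which contains the mammary stem cells among a majority of basal and myoepithelial cells, and CD29-low CD24-positive cells form the luminal population. Virgin mice gave 3 arrays of each population and mice at day 12.5 of pregnancy gave 4 of each, from cells sorted at a stated purity above 90%. The study counts 3 pools of virgin and 4 pools of pregnant mice for the 14 arrays, so MaSC-enriched and luminal arrays may share mice. All mice were of this single strain, and their ages, and which arrays came from the same pool, are not given in the sources used here. Each population is a mixture, so a change in a pool may be a change of RNA per cell or of the mix of cells, and in bulk samples fewer cells of a type and less RNA per cell cannot be told apart.

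As background, progesterone, prolactin and RANK ligand drive alveolar growth and the onset of milk protein synthesis around the middle of pregnancy. Hormone-sensing luminal cells carry the estrogen and progesterone receptors and pass the signal on through secreted factors such as Wnt4 and RANK ligand. Alveolar luminal cells, directed by Elf5 and STAT5, make the milk, and basal cells contract to expel it and lay down the basement membrane.

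The labels held in the keratins Krt5 and Krt18 and less clearly in some other markers. Krt5, a basal keratin, was detected on all 7 MaSC-enriched arrays and on 0 luminal arrays, and Krt18, a luminal keratin, ran from 10.87 to 12.19 on the log2 scale in MaSC-enriched and from 13.80 to 14.68 in luminal arrays. Krt14 was high in both populations, at 9.78 to 13.79 in luminal cells. The basal regulator Trp63 was detected on 2 of 3 virgin and on 4 of 4 pregnant luminal arrays. The smooth muscle actin Acta2 was detected on all 14 arrays. Probes detected per array ran from 34.8% to 42.3%. Arrays of virgin MaSC-enriched cells varied most (median SD 0.43 in log2 units, against 0.21 to 0.28 in the other groups). The 14 arrays sat on 4 chips, of which only chip 4 held an array of every group, so each difference in response is also available within that chip, without a test. Chip 3 held 3 of the 4 pregnant and 0 of the virgin MaSC-enriched arrays, and virgin MaSC-enriched replicate 2 was alone on chip 2. The response of MaSC-enriched cells was therefore in large part confounded with chip.

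More genes were called for pregnancy in luminal than in MaSC-enriched cells, and most called differences in response came from that side. Of all genes tested, 5.07% were called for pregnancy in MaSC-enriched cells and 21.6% in luminal cells (limma, Benjamini-Hochberg adjusted p below 0.05). Of the 7905 genes, 161 (2.04%) rose and 143 (1.81%) fell in MaSC-enriched cells, and 905 (11.4%) rose and 818 (10.3%) fell in luminal cells. The MaSC-enriched total of 304 became 772 without virgin MaSC-enriched replicate 2, where the luminal total was 1991. It became 148, 179 and 178 without pregnant MaSC-enriched replicates 2, 3 and 4, and 196 under median scaling. With array weights the totals were 164 and 3849, against 304 and 1723. The difference in response itself was called for 579 of the 7905 genes, 7.32% of them, against 8.62% of all genes tested (5.26% above and 3.36% below). In 340 genes (4.3%) the MaSC-enriched response lay above the luminal one and in 239 (3.02%) below it, a split of 58.7% above that became 71.8% (265 above and 104 below) under median scaling. Without an adjustment, 1729 genes had a p below 0.05. A change of at least 2-fold was reached by 324 of the 340 and by 226 of the 239, and the smallest called difference was 0.80 in log2 units. The median standard error was 0.36.

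Among the 340 genes, 269 (79.1%) fell in luminal cells and were not called in MaSC-enriched cells, 30 rose in MaSC-enriched cells alone, 16 fell in both, 10 rose in MaSC-enriched cells and fell in luminal cells, and 15 passed in neither population by itself. Among the 239 genes, 183 (76.6%) rose in luminal cells alone, 21 fell in MaSC-enriched cells alone, 8 rose in both, 6 moved in opposite directions and 21 passed in neither. In these counts alone means that the other population was not called, which does not show that it had no response. The luminal response was the larger in size in 84.8% of the called genes, against 61.6% of all 7905. In other settings this share of the called genes ran up to 87.2% (without virgin luminal replicate 1). It fell to 66.6% with chip as a fixed block and to 67% without virgin MaSC-enriched replicate 2. The typical response was small in both populations: its median size was 0.27 in MaSC-enriched and 0.38 in luminal cells. Over the 7905 genes the responses of the populations had a Pearson correlation of 0.38 and a Spearman correlation of 0.30, a description across genes that share arrays.

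**Figure D1:**
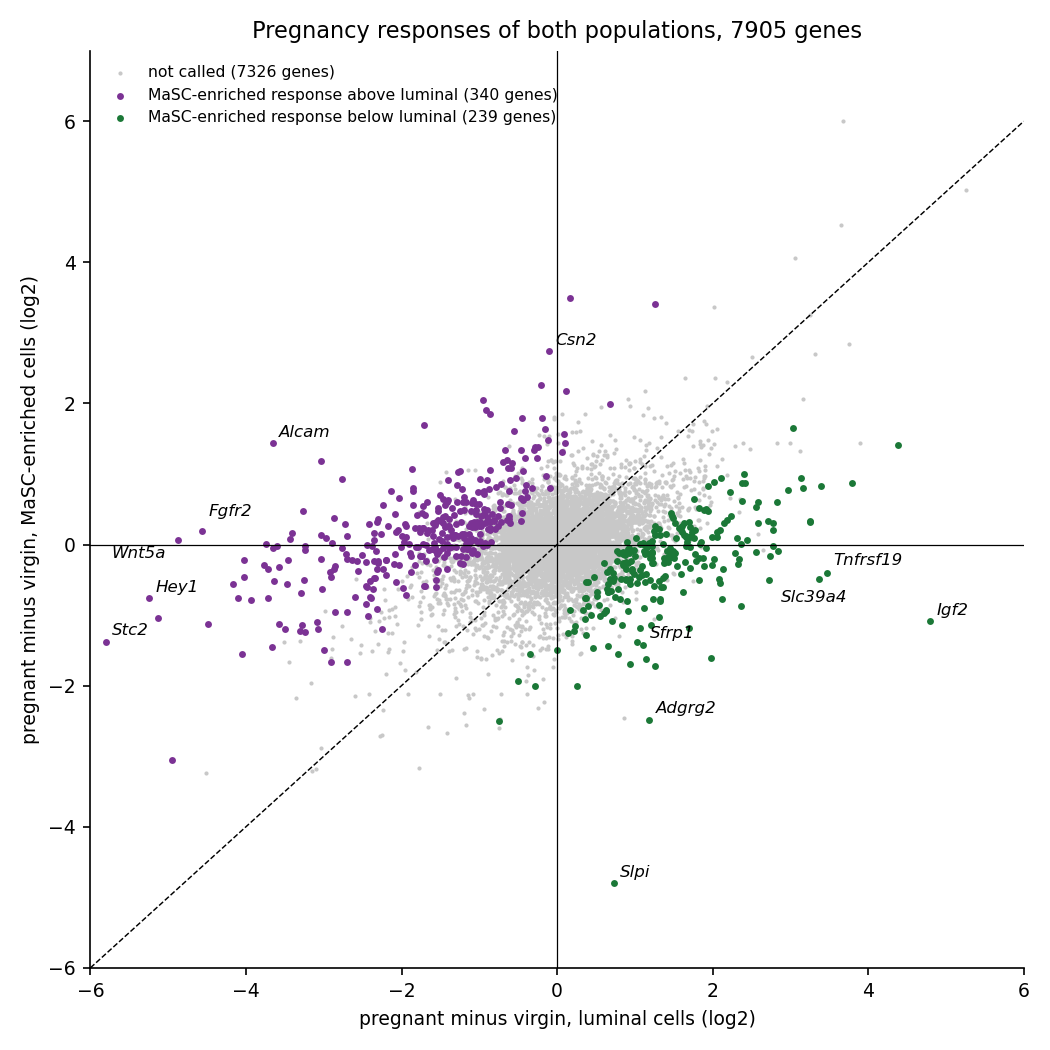
Pregnancy response of each of the 7905 genes in luminal cells (x axis, pregnant minus virgin, log2) and in MaSC-enriched cells (y axis, same unit). The dashed line marks equal responses, purple points are the 340 genes with the MaSC-enriched response above the luminal one, green points the 239 below it, and grey points were not called. Most purple points spread leftwards along the horizontal axis and most green points rightwards, with Slpi far below it.

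The result rested on few arrays per group. Of the called genes 200 higher and 114 lower stayed past the threshold without each of the 14 arrays in turn. Leaving out virgin MaSC-enriched replicate 2 raised the count from 579 to 1049, while leaving out virgin luminal replicate 1 lowered it to 352 and pregnant MaSC-enriched replicate 3 to 384. Within chip 4 the sign was the same in 339 of the 340 genes, Gclc being the exception, and in 239 of the 239. The arrays of chip 4 are among the 14 that gave the calls. This agreement therefore follows in part from the selection and is a description.

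The largest difference was that of Alcam, a cell adhesion molecule of the immunoglobulin family. Its normalized log2 intensity was 7.98, 7.25 and 8.86 in virgin and 9.10, 9.86, 9.35 and 9.58 in pregnant MaSC-enriched cells. In luminal cells it was 11.41, 11.65 and 11.27 in virgin and 8.19, 7.83, 7.90 and 7.23 in pregnant arrays. So it rose in MaSC-enriched cells and fell in luminal cells, with no overlap between virgin and pregnant arrays in either. The responses were 1.44 (SE 0.33) and -3.65 (SE 0.33), and they differed by 5.10 (SE 0.47, limma adjusted p = 1.22e-05), a 34.2-fold divergence. Virgin luminal cells had the higher level before pregnancy (gap -3.41) and MaSC-enriched cells during it (gap 1.68).

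Wnt5a, a ligand that acts mostly outside the beta-catenin branch of Wnt signalling, was the second. Luminal arrays read 12.10, 11.95 and 10.88 before and 6.67, 6.71, 7.12 and 6.60 during pregnancy. MaSC-enriched arrays read 9.16, 10.25 and 8.16 before and 9.48, 9.37, 9.17 and 9.01 during it. The luminal level fell 29.2-fold while the MaSC-enriched groups overlapped, and the responses differed by 4.94 (SE 0.56, adjusted p = 7.34e-05). Its other probe gave 4.29.

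Fgfr2, the receptor for fibroblast growth factors that supports ductal growth, followed the same course from a high level. It read 14.42, 14.79 and 13.47 in virgin and 9.89, 9.94, 9.42 and 9.40 in pregnant luminal arrays. In MaSC-enriched cells it stayed between 12.65 and 13.40 in all 7 arrays. The difference was 4.76 (SE 0.40, adjusted p = 6.09e-06). Its other probes gave 5.49, 2.01 and 0.83, of which the last, detected on 4 arrays, was not called.

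Hey1, a transcriptional repressor induced by Notch, read 12.53, 13.37 and 10.85 in virgin and 6.96, 6.81, 7.34 and 6.93 in pregnant luminal arrays. Its MaSC-enriched response of -0.76 was not called, and the difference was 4.49 (SE 0.69, adjusted p = 0.000944). Stc2, a secreted glycoprotein hormone, fell in both populations, by 5.81 in luminal and 1.38 in MaSC-enriched cells (difference 4.43). Limch1, an actin-binding activator of myosin II, rose by 1.18 in MaSC-enriched and fell by 3.04 in luminal cells (difference 4.22). Fgg, the fibrinogen gamma chain, fell in both, and by 5.13 in luminal cells (difference 4.10). Col8a1, a short-chain collagen, also fell in both (difference 3.95, or 2.50 within chip 4).

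The remaining genes of the 12 highest were Slco2a1, the prostaglandin transporter (3.79), Rbms3, an RNA-binding protein (3.75), Bdnf, a neurotrophin (3.74), and Mycl, a Myc family transcription factor (3.69). All 4 fell in luminal cells and none was called in MaSC-enriched cells. One of the other Rbms3 probes, detected on 5 arrays, gave -0.0155. Within chip 4 Bdnf gave 6.07. The other Bdnf probes gave 1.14, 0.40 and 1.20 with no call, and the call on Bdnf ended when the probes of a gene were averaged (1.62, adjusted p = 0.144) or the background was not corrected (2.46, adjusted p = 0.0516).

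On the other side the largest difference was that of Igf2, the insulin-like growth factor that promotes alveolar growth. It read 8.84, 6.43 and 8.54 in virgin and 13.18, 13.01, 12.09 and 12.65 in pregnant luminal arrays. In MaSC-enriched cells it read 10.85, 10.81 and 9.60 in virgin and 9.14, 9.74, 9.89 and 8.54 in pregnant arrays. The luminal arrays separated fully and the MaSC-enriched ones overlapped. The responses were 4.80 (SE 0.52) in luminal and -1.09 (SE 0.52, not called) in MaSC-enriched cells, and their difference was -5.88 (SE 0.74, adjusted p = 0.000199).

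Slpi, a secreted inhibitor of serine proteases with a whey acidic protein domain, differed through the MaSC-enriched side. It read 11.92, 11.64 and 11.21 in virgin and 7.40, 6.69, 6.55 and 6.51 in pregnant MaSC-enriched arrays. Luminal arrays, at 10.33, 9.11 and 9.59 before and 10.74, 10.66, 9.46 and 10.79 during pregnancy, overlapped. The difference was -5.53 (SE 0.51, adjusted p = 1.32e-05).

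Adgrg2, an orphan adhesion G protein-coupled receptor, moved in opposite directions from tight groups. It read 9.02, 8.90 and 8.87 in virgin and 6.68, 6.09, 6.34 and 6.68 in pregnant MaSC-enriched arrays, and 5.87, 6.20 and 6.07 in virgin and 7.27, 7.14, 7.37 and 7.15 in pregnant luminal arrays. No arrays of the different states overlapped in either population. The difference was -3.67 (SE 0.27, adjusted p = 2.93e-06), the smallest standard error among the 24 genes. Without background correction it shrank to -2.16 and stayed past the threshold.

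Several genes rose in luminal cells and were not called in MaSC-enriched cells. They were Tnfrsf19, a receptor of the TNF family (difference -3.87), Slc39a4, an intestinal-type zinc importer (-3.86, or -2.23 within chip 4), and Syt9, a synaptotagmin of regulated secretion (-3.23). Also among them were Dkk3, a secreted Dickkopf family protein (-3.23), Tent5c, a poly(A) polymerase (-2.93), Fut4, a fucosyltransferase (-2.93), and Rgs16, a regulator of G protein signalling (-2.92). Chip as a fixed block ended the Rgs16 call (-2.65, adjusted p = 0.0503). Kcnk6, a potassium channel, rose in both populations, by 4.39 in luminal and by 1.41 in MaSC-enriched cells (difference -2.98). Ass1, the argininosuccinate synthase of arginine synthesis, fell by 1.72 in MaSC-enriched cells and rose by 1.26 in luminal cells (difference -2.98).

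**Figure D2:**
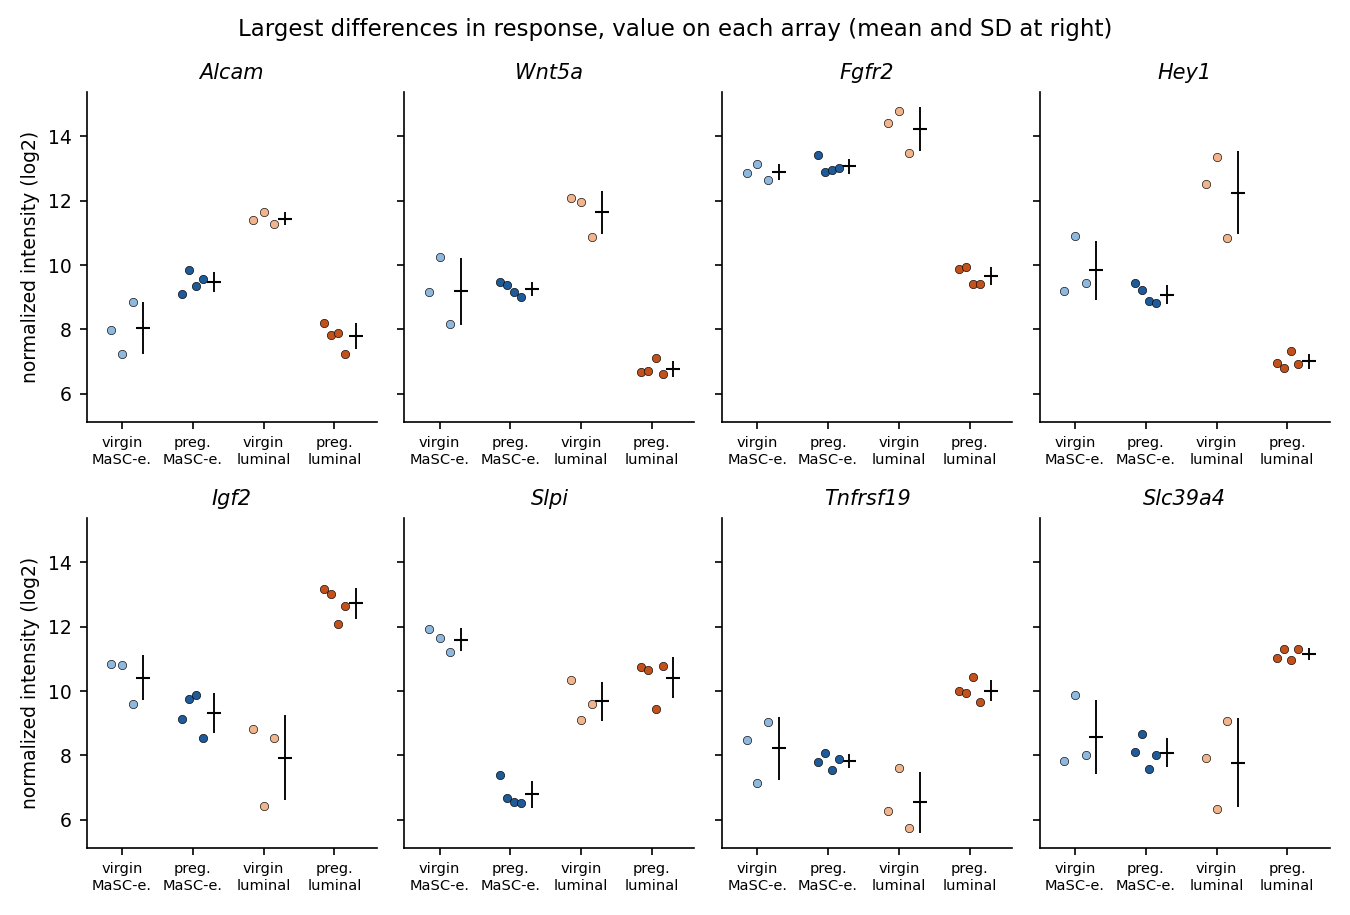
Normalized log2 intensity (y axis) on each of the 14 arrays for the 4 genes with the highest and the 4 with the lowest difference in response, by group (x axis). Bars to the right of the points are the mean and SD of 3 virgin or 4 pregnant arrays. In Alcam, Wnt5a, Fgfr2 and Hey1 the pregnant luminal arrays sit below every virgin luminal array, and in Igf2, Tnfrsf19 and Slc39a4 above them. In Slpi the drop is on the MaSC-enriched side.

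Opposite changes that passed in both populations were seen in 16 genes. The difference in response of all 16 stayed called without each array in turn. Whether their separate calls in each population also stayed was not tested. Besides Alcam and Limch1, those that rose in MaSC-enriched and fell in luminal cells were Gnaz, Pxylp1, Etv5, Rcbtb2, Plekhs1, Apbb2, Cbr2 and Triobp. Etv5, an ETS transcription factor downstream of FGF signalling, rose by 1.90 in MaSC-enriched and fell by 0.92 in luminal cells (difference 2.82, adjusted p = 0.000601). Gnaz, a G protein alpha subunit, rose by 1.70 and fell by 1.71 (difference 3.41). The reverse held in Igsf3, Podxl2, Sfrp1, Dapk2, Ass1 and Adgrg2. Dapk2, a calmodulin-regulated kinase of cell death, fell by 1.62 in MaSC-enriched and rose by 1.15 in luminal cells (difference -2.76).

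The gap between the populations, MaSC-enriched minus luminal, often changed sign with pregnancy in these genes. It did so in 153 (45%) of the 340 genes and in 139 (58.2%) of the 239, against 26.5% of the genes not called. These shares follow in part from the call itself, and are given as a description. The gap was called in 29.1% of the 7905 genes in virgin cells and in 42.8% in pregnant cells. It rests on 3 arrays of each population in virgin and 4 in pregnant cells, so these shares depend in part on the number of arrays. Its median size was 0.45 in virgin and 0.53 in pregnant cells. In 55 called genes it was called in both states with opposite signs, of which 34 went from higher in luminal to higher in MaSC-enriched cells and 21 the other way. Wnt5a went from -2.45 to 2.48 and Fgfr2 from -1.35 to 3.41, in log2 MaSC-enriched minus luminal. Hey1 went from -2.41 to 2.08 and Fgg from -1.77 to 2.32. Igf2 went the other way, from 2.48 to -3.40, and so did Slpi, from 1.91 to -3.62. Tnfrsf19 went from 1.68 to -2.19 and Syt9 from 2.20 to -1.03.

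**Figure D3:**
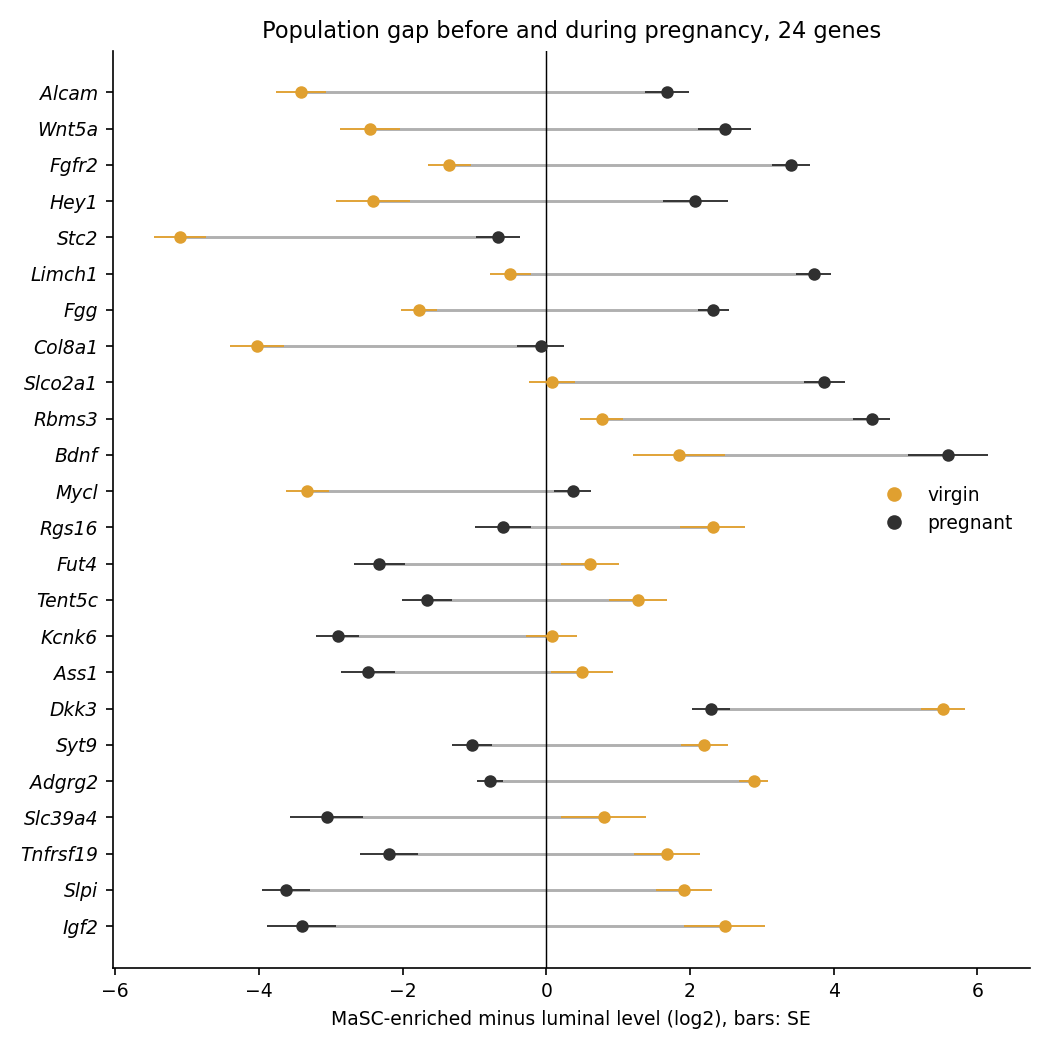
Level in MaSC-enriched minus luminal cells (x axis, log2) in virgin (orange) and pregnant glands (black) for the 24 genes with the largest differences in response that stayed called without each array. Bars are the standard errors of the fit over 14 arrays. The gaps of Alcam, Wnt5a, Fgfr2, Hey1 and Fgg cross from negative to positive, those of Igf2, Slpi and Tnfrsf19 from positive to negative, and those of Bdnf and Dkk3 stay positive.

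The regions before the starts of the genes at both ends of the ranking are shown for reference, the 2 highest and the 2 lowest with an entry in the promoter table (Wnt5a has none), together with that of Csn2, chosen after its values were seen because the caseins moved together. Each run is the 250 bases before the start in RefSeq, build GRCm38.p6, 5′ to 3′ on the gene's own strand, which is the minus strand in all 5. Capitals mark the motif TTCNNNGAA, the core of a STAT5 site, which reads the same on both strands, overlapping matches included. Alcam lies at chr16:52453082-52453331, Fgfr2 at chr7:130266809-130267058, Igf2 at chr7:142666817-142667066, Slpi at chr2:164356508-164356757 and Csn2 at chr5:87699426-87699675. Igf2 has 4 starts in the table and the first listed is shown.
Alcam: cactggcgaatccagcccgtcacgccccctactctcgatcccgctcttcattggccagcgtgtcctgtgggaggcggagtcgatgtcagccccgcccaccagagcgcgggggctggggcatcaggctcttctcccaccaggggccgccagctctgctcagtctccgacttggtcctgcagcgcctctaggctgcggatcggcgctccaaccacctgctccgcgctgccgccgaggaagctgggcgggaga
Fgfr2: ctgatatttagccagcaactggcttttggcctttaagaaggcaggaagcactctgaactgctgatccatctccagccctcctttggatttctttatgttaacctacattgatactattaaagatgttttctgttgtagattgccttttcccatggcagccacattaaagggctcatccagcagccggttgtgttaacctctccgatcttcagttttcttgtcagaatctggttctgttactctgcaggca
Igf2: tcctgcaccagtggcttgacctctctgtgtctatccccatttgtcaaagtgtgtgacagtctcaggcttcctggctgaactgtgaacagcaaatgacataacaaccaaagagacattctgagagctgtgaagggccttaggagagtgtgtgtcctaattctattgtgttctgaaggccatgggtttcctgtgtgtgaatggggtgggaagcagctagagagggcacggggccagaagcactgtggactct
Slpi: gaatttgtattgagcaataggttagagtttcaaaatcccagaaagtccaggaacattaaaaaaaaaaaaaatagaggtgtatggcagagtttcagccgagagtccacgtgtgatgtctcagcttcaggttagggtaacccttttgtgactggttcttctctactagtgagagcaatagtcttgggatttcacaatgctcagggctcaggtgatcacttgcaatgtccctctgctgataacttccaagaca
Csn2: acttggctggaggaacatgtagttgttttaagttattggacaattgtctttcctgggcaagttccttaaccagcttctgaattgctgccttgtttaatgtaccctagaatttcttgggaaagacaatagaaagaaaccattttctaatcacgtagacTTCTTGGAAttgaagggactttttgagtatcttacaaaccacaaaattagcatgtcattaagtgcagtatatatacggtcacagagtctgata
The Csn2 run holds a single match, which starts 93 bases before the start, and the other 4 runs hold none. A match was found before 7.18% of all genes in the table, before 5.93% of the 6509 detected genes with an entry, before 17 of 272 genes (6.25%) with the MaSC-enriched response above the luminal one and before 8 of 188 (4.26%) with it below. A match in these windows is a description of the letters and not of a bound site.

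Of 12 detected milk protein genes, 7 rose in MaSC-enriched and 4 in luminal cells, beside 2.04% and 11.4% of all detected genes. The caseins were already high in virgin luminal cells. Of the 12, 4 had the MaSC-enriched response above the luminal one (Wfdc18, Csn2, Csn1s1 and Csn3) and 0 below, 33.3% called beside 7.32% of all detected genes, with a median difference of 1.11 against -0.03 over all 7905 genes. Csn2, the beta-casein of milk, read 11.33, 11.18 and 12.70 in virgin and 14.14, 14.47, 14.60 and 14.71 in pregnant MaSC-enriched arrays. Luminal arrays read 14.06, 14.50 and 14.69 before and 14.34, 14.35, 14.12 and 14.45 during pregnancy. The MaSC-enriched arrays separated and the luminal ones overlapped, and the responses differed by 2.84 (SE 0.44, adjusted p = 0.000961). Wfdc18, a secreted protein with a whey acidic protein domain, differed by 3.33, or by 2.17 within chip 4. Csn1s1, the alpha-S1-casein, differed by 2.07 and Csn3, the kappa-casein, by 1.34, or by 0.74 within chip 4.

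All luminal arrays of these 4 genes lay between log2 13.73 and 14.69 in both states. Unnormalized luminal intensity of Csn2 was 58.1% to 85.5% of the brightest probe of its array in virgin and 59.7% to 73.0% in pregnant cells, against 7.21% to 21.2% in virgin MaSC-enriched cells. Whether a further luminal rise was lost near the top of the scale was not tested. Without genes at that level the list had 0 calls, and within chip 4 its median was -0.14. Without virgin luminal replicate 1 the median was 0.59. Csn3 ended its call under median scaling (1.02) and cyclic loess (1.32), and its other probes gave 1.27 and 0.63 with no call.

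Wap, the whey acidic protein, rose in both populations. It read 7.66, 8.07 and 6.48 in virgin and 13.73, 13.83, 13.07 and 12.97 in pregnant MaSC-enriched arrays, and 12.60, 9.83 and 10.52 in virgin and 14.60, 14.87, 14.60 and 14.56 in pregnant luminal arrays. Its difference of 2.32 (SE 0.73) missed the threshold (adjusted p = 0.07). Pregnant luminal intensity of Wap was 73.6% to 98.3% of the brightest probe of its array, against 4.53% to 24.5% in virgin luminal cells, so this difference too was read near the top of the scale. It passed with chip as a block (3.34), with array weights (3.30), without virgin MaSC-enriched replicate 2 (2.66) and without virgin luminal replicate 2 (2.90). Lalba, the lactose synthase subunit alpha-lactalbumin, was not called in either population (difference 0.48, adjusted p = 0.749).

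Among 13 alveolar regulators and prolactin signalling genes, 2 were above and 0 below (15.4% called, beside 7.32% of all detected genes). Elf5 rose by 3.41 in MaSC-enriched cells, and its luminal response of 1.26 was not called (adjusted p = 0.0573). Its difference of 2.15 (adjusted p = 0.0489) ended without most single arrays and was 1.14 within chip 4, and of its other probes 1 gave 1.43 and 1 gave -1.25, neither called. Socs3, a feedback inhibitor of cytokine signalling, fell by 2.07 in luminal cells (difference 2.25, adjusted p = 0.0283), and the difference lost its call when most single arrays were left out, down to 1.81 in the absence of the third virgin MaSC-enriched array. Stat5a (-0.88), Gata3 (0.51) and Tnfrsf11a, which encodes RANK (-0.61), were not called, and Tnfrsf11a rose in both populations (1.37 and 1.98).

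Of 19 detected genes of fatty acid and triglyceride synthesis, 15 rose in luminal cells, where 11.4% of all detected genes rose, and 3 in MaSC-enriched cells, where 2.04% did. The MaSC-enriched response was below the luminal one in 4 and above it in 1 (26.3% called, beside 7.32% of all detected genes), with a median of -0.71. Acacb, an acetyl-CoA carboxylase, read 6.80, 7.41 and 6.06 in virgin and 9.48, 9.37, 9.53 and 9.76 in pregnant luminal arrays, while all 7 MaSC-enriched arrays lay between 6.71 and 8.46 (difference -2.57, SE 0.53, adjusted p = 0.00711). Fads2, the delta-6 desaturase (-1.90), Dgat1, which makes triglyceride from diglyceride (-1.51), and Gpat4, a glycerol phosphate acyltransferase (-1.14), shared its direction. Gpat4 is outside the naming rule and was chosen after its values were seen.

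Dgat2, the other diglyceride acyltransferase, went the opposite way. It read 11.78, 12.80 and 11.90 in virgin and 8.24, 8.24, 7.64 and 8.10 in pregnant luminal arrays, against 9.91, 10.30 and 10.89 and then 9.24, 9.40, 9.95 and 9.85 in MaSC-enriched arrays. The luminal level fell 17.2-fold and the difference was 3.35 (SE 0.42, adjusted p = 0.000215). Dgat1 and Dgat2 thus differed between the populations in opposite directions. Of 13 sterol synthesis genes 7 rose in luminal and 0 in MaSC-enriched cells, beside 11.4% and 2.04% of all detected genes. Called below were 2 of them (15.4%, beside 7.32% of all detected genes), Mvd (-2.36) and Pmvk (-1.09), enzymes of the mevalonate pathway. Both calls ended when single arrays were left out, and Pmvk was -1.80 within chip 4.

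**Figure D4:**
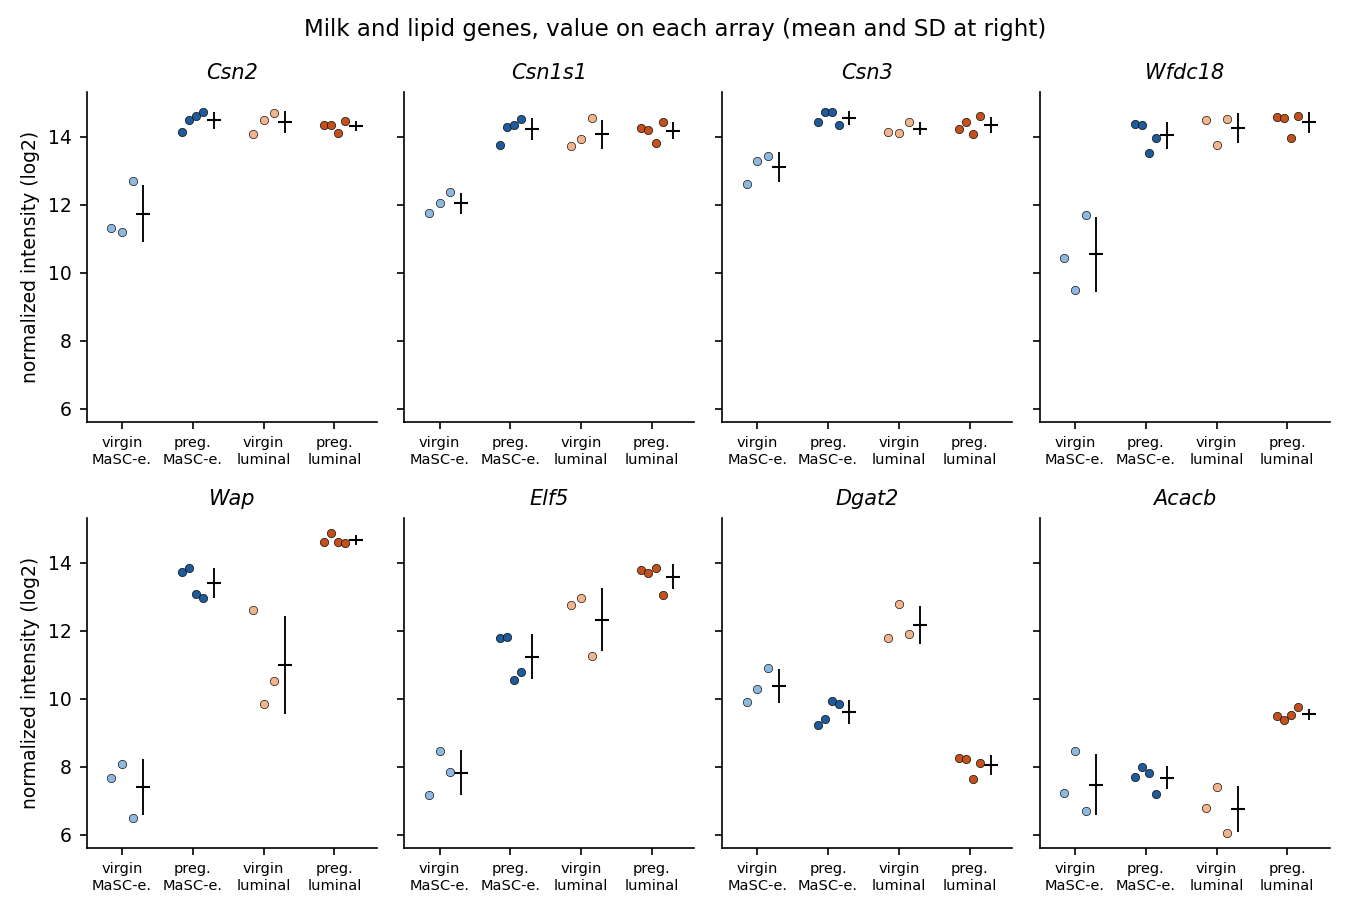
Normalized log2 intensity (y axis) on each array for milk, alveolar and lipid genes, by group (x axis), with the mean and SD of each group at right. Csn2, Csn1s1, Csn3 and Wfdc18 sit near 14 in 3 of the 4 groups and lower in virgin MaSC-enriched cells, Wap rises in both populations, Elf5 in MaSC-enriched cells, Dgat2 falls in luminal cells and Acacb rises there.

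Esr1 and Tbx3 fell on the luminal side. Of the hormone-sensing list, 3 of 15 listed genes were detected in every group, and these 2 were called above (66.7% of the 3, beside 7.32% of all detected genes). Esr1, the estrogen receptor, read 10.61, 10.81 and 10.65 in virgin and 8.37, 8.19, 8.04 and 7.78 in pregnant luminal arrays, and 7.31 to 7.68 and 6.45 to 7.06 in MaSC-enriched arrays. The difference was 1.86 (SE 0.28, adjusted p = 0.000919), and its other probe gave 0.40 with no call. Tbx3, a T-box repressor of this lineage, fell by 3.25 in luminal cells (difference 2.75, adjusted p = 0.00262), with its other probes at 1.88, 3.14 and 0.97. Wnt4, the progesterone-induced ligand, fell short at 1.33 (adjusted p = 0.0652), and it passed with chip as a block (1.49) and without virgin MaSC-enriched replicate 3 (1.66). Pgr, the progesterone receptor, was detected on all 3 virgin luminal arrays and on 0 pregnant luminal ones, so it lay outside the rule. So did Foxa1, which was detected on 0 pregnant MaSC-enriched arrays.

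Of 12 luminal progenitor genes, 2 were above (16.7%, beside 7.32% of all detected genes). They were Elf5 and Trf, the iron carrier transferrin (1.25, adjusted p = 0.0214). Trf lay between log2 14.31 and 14.76 in all luminal arrays and lost its call under median scaling (0.76). The call was also lost when the first virgin MaSC-enriched array was left out (1.12, adjusted p = 0.0521). Kit, the receptor that marks these cells, differed by 1.08 with no call. Of 12 general luminal genes, Krt7 alone was called (8.33%, near the 7.32% of all detected genes). This keratin read 13.04, 12.85 and 12.53 in virgin and 9.24, 9.57, 8.88 and 9.65 in pregnant luminal arrays (difference 2.91, adjusted p = 0.00156, and 1.50 within chip 4). Krt8 (-0.23) and Krt18 (0.47) were not called. Medians of the progenitor and the general luminal lists, 0.46 and 0.61, were -0.04 and -0.12 within chip 4.

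Basal genes took both directions. Among 7 detected basal transcription factors and keratins 3 were called (42.9%, beside 7.32% of all detected genes). Meis1, a homeobox factor, fell by 3.04 in luminal cells (difference 3.17, adjusted p = 0.00155), while Krt14 and Tcf7l1 rose there. Krt14 read 12.17, 9.78 and 12.32 in virgin and 13.65, 13.79, 13.76 and 13.74 in pregnant luminal arrays, and 14.15 to 14.50 in MaSC-enriched arrays, where its intensity was 57.6% to 70.9% of the brightest probe of the array. Its difference was -2.21 (adjusted p = 0.0391), or -1.33 within chip 4. Without virgin luminal replicate 2 it was -1.39 and still called (adjusted p = 0.00419), and the call ended without most of the other arrays and with chip as a block (-1.57). Tcf7l1, a repressor of Wnt target genes, rose in both populations, by 2.37 in luminal and 0.88 in MaSC-enriched cells (difference -1.50, adjusted p = 0.00334). Its other probe gave -0.13 with no call. Krt5 and Lgr5 were detected on 0 luminal arrays, and Lgr5 on 1 of 4 pregnant MaSC-enriched ones. Trp63, a regulator of the basal lineage, was detected on 2 of 3 virgin and on 4 of 4 pregnant luminal arrays, just short of the rule.

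Of 12 smooth muscle genes, 3 were above and 0 below (25% called, beside 7.32% of all detected genes), with a median of 0.16. At an unadjusted p below 0.05 there were 5 above and 4 below. In luminal cells 4 of the 12 rose and 4 fell, beside 11.4% and 10.3% of all detected genes. Vcl, or vinculin, differed by 1.30 (adjusted p = 0.00347), Actn1, an alpha-actinin, by 0.97 (adjusted p = 0.0169) and Cnn2, a calponin, by 1.24 (adjusted p = 0.0479). The Cnn2 call ended when single arrays were left out, and chip as a block ended that of Actn1 (0.88). The 4 on the lower side, all of them genes that rose in luminal cells, were Acta2, the smooth muscle actin, and the myosin genes Myh11 (-1.62), Mylk (-1.88) and Myl9 (-1.48), of which the last 3 were chosen after their values were seen. Acta2 rose by 1.54 in luminal cells and its difference of -1.39 was not called (adjusted p = 0.196). Without virgin luminal replicate 1 it was -2.18 and called (adjusted p = 0.000311).

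Among 21 matrix, integrin and hemidesmosome genes 3 were above and 3 below (28.6% called, beside 7.32% of all detected genes). Mmp14, the membrane-type matrix protease, fell by 2.32 in luminal cells (difference 1.97, adjusted p = 0.000427). Itga3, a laminin receptor subunit, fell by 1.56 there (difference 1.48). Itgb4, the hemidesmosome integrin, went the other way: it read 12.52, 12.52 and 12.03 in virgin and 10.59, 10.16, 10.54 and 10.43 in pregnant MaSC-enriched arrays, a fall of 1.93, against a luminal response of -0.50 that was not called (difference -1.43, adjusted p = 0.00506). Tnc, the matrix protein tenascin C, had a difference of -3.59, with virgin MaSC-enriched arrays at 10.84, 6.79 and 10.17, and its call (adjusted p = 0.04) ended without single arrays.

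Of 10 detected fibroblast markers Dcn, the proteoglycan decorin, was the 1 called, 10% of them beside 7.32% of all detected genes (difference 2.64, adjusted p = 0.012). Its luminal arrays read 14.27, 14.73 and 13.52 before and 11.14, 11.22, 13.09 and 11.95 during pregnancy. In luminal cells Dcn fell, Col1a1, a chain of type I collagen chosen after its values were seen, rose by 1.49 (adjusted p = 0.0373), and the other 8 were not called. The median difference over the 10 was 0.06. The summed intensity of 11 tested fibroblast markers ran from 13300 to 35700 in virgin and from 3760 to 15500 in pregnant luminal arrays, which overlapped, and from 26900 to 38800 and 30200 to 42100 in MaSC-enriched arrays. In each luminal group 10 of the 11 were detected.

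Of the other lists of foreign cells (adipocyte, leukocyte, endothelial, pericyte, erythroid, and Schwann cell and muscle markers), 15 genes were detected in every group and limma called 0 differences in response, with 1, the endothelial Eng, at an unadjusted p below 0.05. Eng and Vwf, both endothelial and chosen after their values were seen, fell in luminal cells, by 1.68 and 1.31. Several summed levels were lower in pregnant than in virgin luminal arrays with no overlap. The sum of 3 adipocyte markers went from 210 to 271 in virgin to 107 to 173 in pregnant luminal arrays, with Adipoq and Lep detected on 0 luminal arrays. That of 7 pericyte markers went from 1930 to 2450 to 1330 to 1650, and that of 4 Schwann cell and muscle markers from 2050 to 2800 to 817 to 994. The sums of 9 endothelial markers (3130 to 4200, then 1800 to 3310), 6 leukocyte markers (281 to 532, then 495 to 1130) and 3 erythroid markers (1600 to 7510, then 1780 to 9530) overlapped in luminal cells. In MaSC-enriched cells the leukocyte sum was higher in pregnancy with no overlap (416 to 685, then 775 to 1190), and the other sums overlapped. The part of such cells in the luminal falls, Mmp14 and Col8a1 included, was not tested.

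Of 13 detected Wnt pathway genes 2 were above and 4 below, 46.2% of them beside 7.32% of all detected genes, with a median of -0.37. The genes above were the ligand Wnt5a and Porcn, the enzyme that acylates Wnt proteins (1.12, adjusted p = 0.037, outside the naming rule and chosen after its values were seen). Those below were the secreted antagonist Sfrp1, Dkk3, the R-spondin receptor Lgr6 and Tcf7l1. Sfrp1 read 10.57, 11.60 and 10.62 in virgin and 9.10, 9.29, 9.64 and 10.01 in pregnant MaSC-enriched arrays, and 7.62, 7.66 and 7.98 in virgin and 8.78, 8.98, 9.11 and 8.58 in pregnant luminal arrays. It fell in the first population and rose in the second, with no overlap in either (difference -2.53, SE 0.39, adjusted p = 0.001, and -1.22 within chip 4). Dkk3 was the more MaSC-restricted before pregnancy, with a gap of 5.52 that narrowed to 2.29. Lgr6 rose by 2.14 in luminal cells (difference -1.83, adjusted p = 0.00253).

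Other signalling lists had 1 call each, between 5.26% and 14.3% of their detected members beside 7.32% of all detected genes. Hey1 was the 1 of 10 Notch genes called, with Notch1 (0.10) and Notch3 (-0.30) near 0. Igf2 was the 1 of 19 genes of the IGF and TGF-beta pathways. Dusp6, a phosphatase that restrains ERK, was the 1 of 7 genes of the EGF receptor list: it fell by 1.46 in luminal cells (difference 1.85, adjusted p = 0.00113). Ikbkg, the regulatory subunit of the IkB kinase, was the 1 of 13 RANK and NF-kB genes (1.00, adjusted p = 0.0486), and its other probe gave -0.0887, while the call ended without most single arrays.

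Of 13 genes of G2 and mitosis, 8 rose in MaSC-enriched and 12 in luminal cells, beside 2.04% and 11.4% of all detected genes, with median responses of 1.47 and 1.68. By limma 0 of them had a called difference in response and 0 had an unadjusted p below 0.05. Of 16 genes of G1 and S phase, 5 rose in luminal and 0 in MaSC-enriched cells, and 0 differences were called (3 at an unadjusted p below 0.05). Top2a, a topoisomerase of dividing cells, had a difference of -0.09 with a standard error of 0.56, and its other probe gave 1.08 with no call. Ccnd1 (0.97), Myc (0.65) and Ezh2 (-0.50) were not called.

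In the remaining lists the share called was between 0% and 12.5%, beside 7.32% of all detected genes. The 14 detected genes of ribosome biogenesis and Myc had a median difference of -0.85, and Gar1, a protein of the H/ACA particles that modify ribosomal RNA, was the 1 called (-1.20, adjusted p = 0.0394), with 6 below at an unadjusted p under 0.05 and 0 above. The Gar1 call ended when single arrays were left out, and its other probe, detected on 4 arrays, gave -0.91 with no call. In serine, glycine and one-carbon metabolism Shmt2, the mitochondrial serine hydroxymethyltransferase, was the 1 of 9 (-1.58, adjusted p = 0.0448). Its call also ended without single arrays, and its other probe gave -0.49 with no call. In glycolysis Pfkl, a phosphofructokinase, was the 1 of 13 (-1.30, adjusted p = 0.0153), and its other probe gave -1.01 with no call. Limma called 0 of 21 secretory pathway genes, 0 of 21 oxidative phosphorylation genes, 0 of 16 junction genes and 0 of 15 immediate early genes, and the counts at an unadjusted p below 0.05 were 1, 1, 3 and 2.

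Slc7a2, a carrier of cationic amino acids, was the 1 of 8 transport genes called. It read 10.61, 9.76 and 9.80 in virgin and 6.98, 6.87, 5.88 and 5.89 in pregnant luminal arrays, while MaSC-enriched arrays stayed between 7.22 and 8.01 (difference 3.61, adjusted p = 0.000182). Usp18, an interferon-induced protease that removes ISG15, was the 1 of 22 interferon and antigen presentation genes. It read 9.49, 9.62 and 9.56 in virgin and 6.54, 6.31, 6.04 and 5.63 in pregnant luminal arrays, against 6.92 to 7.60 in all MaSC-enriched arrays (difference 3.51, SE 0.34, adjusted p = 1.84e-05). Isg15 itself, chosen after its values were seen, gave -0.90 with no call.

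Of 19 oxidative stress genes 2 were above, 10.5% of them beside 7.32% of all detected genes. They were Gstm2, a glutathione transferase (1.89, adjusted p = 0.0378), and Gclc, the first enzyme of glutathione synthesis (1.56, adjusted p = 0.0464). Both calls ended without single arrays, and within chip 4 Gclc gave -0.0536. Dnmt3b, a DNA methyltransferase, was the 1 of 16 chromatin genes: it rose by 1.63 in luminal cells (difference -1.49, adjusted p = 0.00642). Its other probe, detected on 5 arrays, gave -0.90 with no call. Of 11 housekeeping genes Gusb, the lysosomal beta-glucuronidase, was called (-1.39, adjusted p = 0.00473), and the list's median was -0.02. The other Gusb probes gave -1.40, -0.94 and -1.16 with no call.

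**Figure D5:**
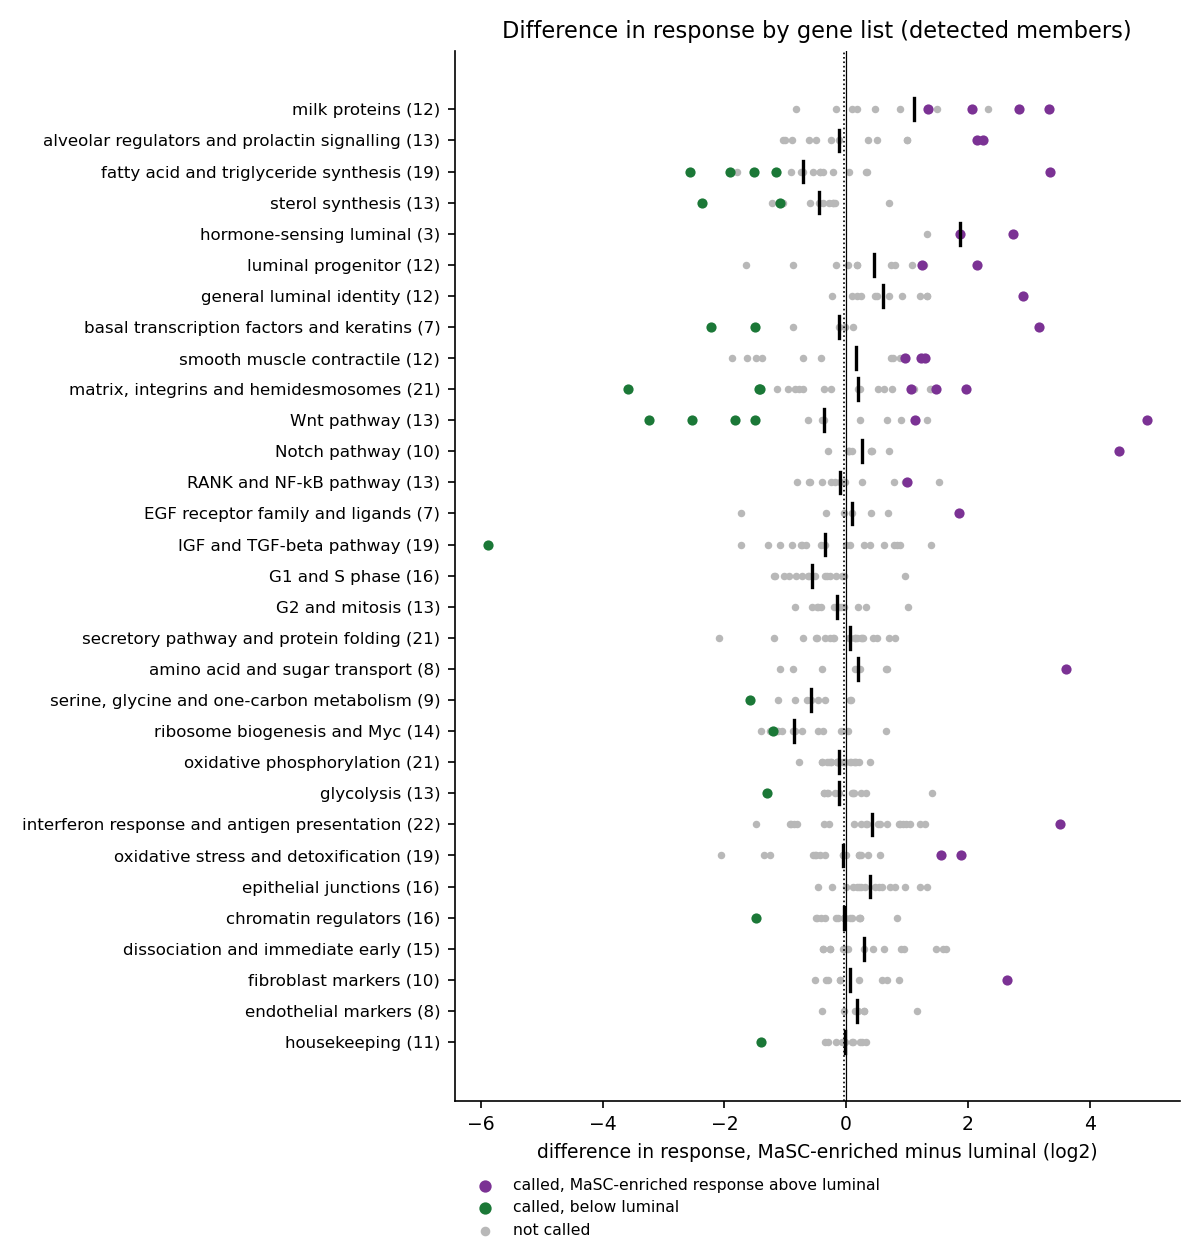
Difference in response, MaSC-enriched minus luminal (x axis, log2), of every detected member of each gene list with at least 3 detected members (y axis, number of members in brackets). Purple points were called above, green points below and grey points not, black ticks are list medians, and the dotted line is the median of all 7905 genes, -0.03. Milk proteins and hormone-sensing genes lie mostly to the right, and the Wnt list is split. Fatty acid synthesis and ribosome biogenesis lie mostly to the left, with 4 of 19 (Dgat2 among them) and 2 of 14 members above 0.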

How the data were processed

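Gene expression was measured on Illumina mouse BeadChips in 14 samples of 4 groups, as pools of sorted cells, and arrays are the replicates. The authors deposited an intensity and a detection p-value for each of 45281 probes and array, not normalized between arrays, and BeadStudio and limma are named in the submitters' processing notes without versions. A table of log2 values deposited by the authors served as an alternative: its steps are not given in the sources used here, but normexp with an offset of 50 and quantile scaling of the intensities matched it to within 0.0172.

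Intensities were background corrected with limma 3.58.1 in R 4.3.3 (normexp from detection p-values, offset 16), quantile normalized and put on the log2 scale. The 20906 probes detected (p below 0.05) on at least 3 of the 14 arrays were tested with a mean for each group, moderated by eBayes, with Benjamini-Hochberg adjustment over those probes. All 4 groups entered the fit and share 1 estimate of the spread (10 residual and 4.64 prior degrees of freedom). A gene is its brightest tested probe. Of the probes 34885 carry a single symbol, 18 several and 10378 none, and the last 2 kinds are not named. Named genes are the 12 highest and 12 lowest that stayed called without each array, up to 4 called genes of each of 36 lists, and a fixed set of mammary regulators and markers. The members and lists were chosen with earlier results of these data known.

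On simulated interactions in 200 of 20906 probes the fit recovered 0% at 2-fold, 58% at 4-fold and 90.5% at 8-fold. In the data 978 genes were called, so the adjustment was stricter in the simulation and its shares do not carry over. The number of arrays limits the precision. Median intensity per array ran from 105 to 165, and the 90th percentile was 7.44 to 16.3 times the 10th. The alternatives tried were the deposited values, an offset of 50, no background correction, median and cyclic loess scaling, other filters and probe rules, chip and replicate blocks, array weights, trended moderation and each array left out. Each tested probe of a gene on its own was added after seeing the data.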

Additional observations from a re-analysis of the deposited data

Results flagged for a closer look

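Each named gene whose pregnancy response differed between the populations by the interaction test is listed here with that difference (MaSC-enriched minus luminal). Among genes with the MaSC-enriched response above, the difference by gene was as follows. In log2 units the difference was Alcam 5.10, Wnt5a 4.94, Fgfr2 4.76, Hey1 4.49, Stc2 4.43, Limch1 4.22, Fgg 4.10, Col8a1 3.95, Slco2a1 3.79 and Rbms3 3.75. It was Bdnf 3.74, Mycl 3.69, Wfdc18 3.33, Csn2 2.84, Csn1s1 2.07, Csn3 1.34, Socs3 2.25, Elf5 2.15, Dgat2 3.35 and Tbx3 2.75. Further values were Esr1 1.86, Trf 1.25, Krt7 2.91, Meis1 3.17, Vcl 1.30, Cnn2 1.24, Actn1 0.97, Mmp14 1.97, Itga3 1.48 and Ikbkg 1.00. The last were Dusp6 1.85, Slc7a2 3.61, Usp18 3.51, Gstm2 1.89, Gclc 1.56 and Dcn 2.64.

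Among genes with the MaSC-enriched response below, the values by gene were negative. In log2 units the difference was Igf2 -5.88, Slpi -5.53, Tnfrsf19 -3.87, Slc39a4 -3.86, Adgrg2 -3.67, Syt9 -3.23, Dkk3 -3.23, Ass1 -2.98, Kcnk6 -2.98 and Tent5c -2.93. It was Fut4 -2.93, Rgs16 -2.92, Acacb -2.57, Fads2 -1.90, Dgat1 -1.51, Mvd -2.36, Pmvk -1.09, Krt14 -2.21, Tcf7l1 -1.50 and Tnc -3.59. Further values were Itgb4 -1.43, Sfrp1 -2.53, Lgr6 -1.83, Shmt2 -1.58, Gar1 -1.20, Pfkl -1.30, Dnmt3b -1.49 and Gusb -1.39.

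Single arrays lay far from the others of their group in 7 of 162 groups of 4 pregnant arrays examined (81 named genes in both populations). Chance alone sets apart about 1 in 20 groups, which would be 8.1, so the number is no more than that. Replicate 3 of pregnant luminal cells was low for Slpi (9.458) and Wfdc18 (13.97) and high for Socs3 (12.52) and Notch1 (11.66). Replicate 4 of that group was high for Tcf7l1 (12.45) and replicate 2 for Wap (14.87). Replicate 1 of pregnant MaSC-enriched cells was low for Krt8 (13.70).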

How the results depend on the processing

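Over all settings the count of genes with different responses was within 1.5 times 579, apart from these. Median scaling gave 369, with 104 below the luminal response, and moved the median difference over all genes from -0.03 to 0.09. The share of calls above then rose from 58.7% to 71.8%. Chip as a fixed block gave 361 below and 788 in all, of which 457 were among the 579 with the same sign. Array weights gave 1051 (588 above and 463 below). Leaving out 1 array gave 352 to 1049 in all, 212 to 562 above and 140 to 487 below. The lowest counts came without virgin luminal replicate 1 and the highest without virgin MaSC-enriched replicate 2, and 384 came without pregnant MaSC-enriched replicate 3 (147 below). The share of the higher genes that fell in luminal cells alone ran from 62.3% to 87.6%, and that of the lower genes that rose there alone from 60.2% to 87.9%.

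Signs turned in few named genes, of which Gclc, Rbms3, Elf5 and Ikbkg were called: Gclc within chip 4 (-0.0536), and on another probe Rbms3 (-0.0155), Elf5 (-1.25), Ikbkg (-0.0887), Kit (-0.0987), Acta2 (1.33) and Top2a (1.08). Top2a also turned under median scaling (0.054) and the mean of probes (0.495), and Itgb1 with chip as a fixed block (-0.0207). With 1 array left out, Top2a ran from -0.461 to 0.354, Notch1 from -0.167 to 0.489, Notch3 from -1.08 to 0.457 and Itgb1 from -0.0648 to 0.595. The cause was not tested. Whether same-numbered arrays came from the same pool is not given, so the replicate numbers were not used to pair samples. Same-numbered deviations of the populations correlated at 0.0473, 0.421 and 0.377 in virgin and -0.162, 0.00466, -0.165 and 0.0912 in pregnant glands. Each of the 3 virgin MaSC-enriched arrays, and 0 of the 4 pregnant ones, correlated best with the luminal array of its own number, as did 2 of 3 virgin and 1 of 4 pregnant luminal arrays the other way. Virgin pairs 1 and 3 also shared a chip, so number and chip cannot be told apart there. The highest correlation, 0.442, was of pregnant MaSC-enriched replicate 1 with luminal replicate 3, on the same chip. Other same-chip pairs of pregnant arrays gave -0.0716, -0.165 and 0.0912. A replicate block gave 668 (fixed) or 807 (random) calls. On simulated data with 200 of 20906 probes changed, 2-fold differences were not recovered (0%). In the data 8.62% of all genes tested were called, and the smallest called difference was 0.80 in log2 units. The simulated share therefore does not carry over to these data.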

Other observations

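The gene families here were picked after their values were seen, so their counts are descriptions. Receptors for fibroblast growth factors and feedback genes of ERK signalling lay on the same side as Fgfr2. Of 9 detected members, 6 had the MaSC-enriched response above the luminal one and 0 below, beside 4.3% and 3.02% of all detected genes. Their median was 1.85 against -0.03 over all detected genes. In luminal cells 6 members fell, beside 10.3% of all detected genes. Etv5 (2.82) and Etv4 (2.36), ETS factors induced by FGF signalling, were called together with the receptors Fgfr1 (2.19) and Fgfrl1 (1.79) and with Dusp6 (1.85). The Fgfrl1 call ended when single arrays were left out. Spred1 (1.18), Spred2 (1.01) and Spry4 (0.44), inhibitors of the pathway, had the same sign and were not called.

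Of 34 detected replication-dependent histone genes, 11 were above and 0 below, beside 4.3% and 3.02% of all detected genes, with a median of 0.63. H1f2 differed by 2.01, H2bc14 by 1.87 and H2bc4 by 1.84, while H2ac11 had a difference of -1.20 that was not called. These genes are near-identical copies, and signal may be shared between their probes. Of the called ones, H2ac18, H2bc7, H2bc9, H2bc11 and H2bc12 lost the call when single arrays were left out. Among 4 genes of caveolae, the membrane pits scaffolded by caveolin, 3 were above: Cav1 (2.26), Cavin3 (2.07) and Cavin1 (1.73), which all fell in luminal cells. The Cavin1 call ended when single arrays were left out. Of 3 interferon-induced transmembrane genes Ifitm3 (1.59) and Ifitm1 (1.34) were above. MaSC-enriched means of these genes were 14.74 and 14.58 (Ifitm3) and 14.75 and 14.73 (Ifitm1) in virgin and pregnant cells. Whether a MaSC-enriched change was lost near the top of the scale was not tested. For these 2 small families too, 4.3% of all detected genes were above.

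Outside the genes detected in every group, 399 of 3445 tested genes (11.6%) were called, and their differences are limited by the array's floor.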
